A study of Mus musculus with 16 samples.

Results

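The COUP-TF nuclear receptors are encoded in the mouse by *Nr2f1*, *Nr2f2* and *Nr2f6*, and the data collected here are the ATAC-seq peaks that lie nearest to these 3 genes. The peaks came from 2 deposited lists of regions whose accessibility differed between non-neuroendocrine (non-NE) and neuroendocrine (NE) small cell lung cancer (SCLC) cells. A listed peak was counted for a gene when its centre was closer to a transcription start site of that gene than to one of any other protein-coding gene. The peaks were thus chosen by their place in the lists, and so by measured accessibility, and by position. By this rule 38 of the 80367 listed peaks belonged to the 3 genes, with 7 nearest to *Nr2f1*, 29 nearest to *Nr2f2* and 2 nearest to *Nr2f6*. Nearness to a start site does not show that a peak acts on that gene.

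The tumors were those of TKO;Hes1 GFP/+ mice. In this SCLC model, adenovirus carrying Cre under the CMV promoter was given to the airways of mice aged 8 to 12 weeks and deleted floxed *Rb*, *p53* and *p130* in the lung. GFP sits at the endogenous *Hes1* locus and reports the expression of this Notch target. All samples shared the 3 deletions and the reporter allele, and tumors were pooled within a mouse about 6 to 7 months after induction. Cells staining for blood and endothelial surface markers (CD45, CD31, TER-119) were gated out with CD24 as the positive marker, and Hes1-GFP+ (GFP-high, non-NE) cells were compared with Hes1-GFP- (GFP-negative, NE) cells. The labels gave 4 libraries per population from 3 mice, 1 of which contributed 2 pairs as a technical replicate, and each of the 8 libraries was read on 2 lanes to give 16 runs.

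ATAC-seq uses the Tn5 transposase to insert adaptors into open DNA, so that reads pile up at accessible sites. Peaks in the list of sites more accessible in GFP-high cells are called opened here, and those in the list of sites less accessible are called closed. The authors listed a peak when its absolute log2 fold change exceeded 1 and its adjusted p was below 0.001. The only magnitude used here is the mean normalized count of a peak, which is the read count corrected for library size and averaged by the authors over all libraries of both populations. It therefore describes how much signal a peak had in all and not in which cells. No value per library was used, so that library depth is unknown and the values below carry no SD and no test. A peak can be opened because more cells have it or because each cell has more of it, and these cannot be told apart in bulk cells. Peaks that did not pass the limits of the authors were not analysed here.

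COUP-TFs are orphan members of the nuclear receptor family that act mostly as repressors of transcription. They bind DNA as dimers through zinc fingers that recognise copies of the hexamer AGGTCA in various orientations and spacings. *Nr2f1* encodes COUP-TFI, known for its role in patterning of the cortex and development of the eye. *Nr2f2* encodes COUP-TFII, which specifies venous identity in endothelium and is active in mesenchyme of many organs including the lung. *Nr2f6* encodes the more distant relative EAR2, known as a brake on T cell activation. In Notch biology, COUP-TFII is best known for holding back Notch signaling in venous endothelium.

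The promoter peaks of the 2 lists separated the populations at genes used as their markers. Of 11 NE genes such as *Insm1* and *Chga*, 10 had a closed promoter peak and 0 an opened one, whereas 9 of 10 genes of non-NE tumor and club cells such as *Hes1*, *Rest* and *Scgb1a1* had an opened promoter peak and 0 a closed one. Of all protein-coding genes, 26.6% had an opened and 8.43% a closed promoter peak. A promoter peak has its centre within 1 kb of a start site. The NE gene *Syp* and the non-NE gene *Vim* had no listed peak. Over all peaks nearest to these genes, 11 of 136 were opened at the NE genes (8.09%) and 83 of 103 at the non-NE genes (80.6%). Single genes were mixed. *Chga* had more opened than closed peaks (8 and 6), and *Hes1*, whose reporter was used for the sort, had 26 opened and 11 closed.

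The sequences of 6 peaks are shown first because the peaks with the highest signal and the peak with paired receptor hexamers carry most of the description below. Each is 200 bases of the + strand of GRCm38.p6 (mm10), in lower case with exact motif matches in capitals. The opened peaks are the one with the highest mean count for each gene, at chr13:78124076-78124275 in an intron of *Fam172a* for *Nr2f1*, at chr7:70575504-70575703 over the long non-coding gene *Gm44812* for *Nr2f2*, and at chr8:71381961-71382160 just upstream of the start of *Nr2f6*. The capitals mark a FOX match that runs into an NKX2 match in the first, a RUNX match in the second and an E-box in the third. The third stretch is not centred on its peak. Its E-box starts 200 bp from the peak centre and is not among the matches counted below in the central 200 bp.
Nr2f1 opened peak: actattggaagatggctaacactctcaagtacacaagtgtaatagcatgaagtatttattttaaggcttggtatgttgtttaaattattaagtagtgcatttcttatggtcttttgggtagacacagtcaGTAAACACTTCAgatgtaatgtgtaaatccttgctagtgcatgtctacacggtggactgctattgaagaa
Nr2f2 opened peak: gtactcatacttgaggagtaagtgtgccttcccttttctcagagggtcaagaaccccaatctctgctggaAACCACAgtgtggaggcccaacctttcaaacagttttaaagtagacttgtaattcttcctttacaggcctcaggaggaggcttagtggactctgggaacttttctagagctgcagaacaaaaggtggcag
Nr2f6 opened peak: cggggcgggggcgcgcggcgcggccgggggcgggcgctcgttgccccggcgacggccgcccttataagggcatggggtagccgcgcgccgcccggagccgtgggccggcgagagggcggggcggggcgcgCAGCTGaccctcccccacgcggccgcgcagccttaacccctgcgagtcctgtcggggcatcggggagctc

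The closed peaks are the one with the highest mean count for *Nr2f1*, at chr13:78998843-78999042, and the 2 with the highest mean counts for *Nr2f2*, at chr7:70063969-70064168 and at chr7:70577162-70577361. The first is intergenic and its capitals mark a pair of AP-1 matches and an E-box. The second is intergenic and shows a pair of NKX2 matches. The third lies within *Gm44812* and shows the hexamer on both strands with 3 bases between the copies, an AP-1 match and a pair of NKX2 matches, the first of which overlaps the hexamer.
Nr2f1 closed peak: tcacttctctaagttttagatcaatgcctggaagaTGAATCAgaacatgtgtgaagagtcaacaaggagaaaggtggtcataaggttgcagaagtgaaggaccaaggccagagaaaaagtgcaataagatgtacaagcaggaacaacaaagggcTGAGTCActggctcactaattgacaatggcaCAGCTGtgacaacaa
Nr2f2 closed peak with highest signal: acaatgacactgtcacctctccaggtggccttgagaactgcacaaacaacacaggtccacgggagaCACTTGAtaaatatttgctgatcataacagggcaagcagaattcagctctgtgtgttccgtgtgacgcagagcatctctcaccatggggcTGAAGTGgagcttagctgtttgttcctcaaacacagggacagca
Nr2f2 closed peak with paired hexamers: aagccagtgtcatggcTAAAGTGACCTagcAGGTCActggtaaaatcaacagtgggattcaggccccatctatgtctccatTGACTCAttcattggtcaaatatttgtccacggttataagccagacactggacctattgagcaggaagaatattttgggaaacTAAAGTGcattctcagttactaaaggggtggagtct

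The 3 genes differed in what was listed around them. *Nr2f2* had 29 listed peaks, most of them opened, *Nr2f1* had 7, mostly closed and far from the gene, and *Nr2f6* had an opened peak on its promoter and another just upstream. These numbers are not corrected for the span of genome nearest to each gene, which is given below. In all, 24 of the 38 peaks were opened and 14 closed, which is 63.2% opened (95% Wilson interval 47.3 to 76.6). Among all listed peaks 50.8% were opened and 49.2% closed, and the first of these lies within the interval. At least 1 opened peak was nearest to each of the 3 genes and at least 1 closed peak to *Nr2f1* and *Nr2f2*, where 52.2% of protein-coding genes had an opened and 42.0% a closed one. The intervals here cover counting error only and treat peaks as independent, which neighbouring peaks are not. The opened share was 69.0% for *Nr2f2* (20 of 29, interval 50.8 to 82.7), 28.6% for *Nr2f1* (2 of 7, interval 8.22 to 64.1) and 100% for *Nr2f6* (2 of 2, interval 34.2 to 100). The intervals of the 3 genes overlap. Within 100 kb of a start site, or within 500 kb, 2 of 3 *Nr2f1* peaks were opened (66.7%), which lies on the other side of 50.8%. These directions follow from how the peaks were listed, and they were not tested.

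**Figure D1:**
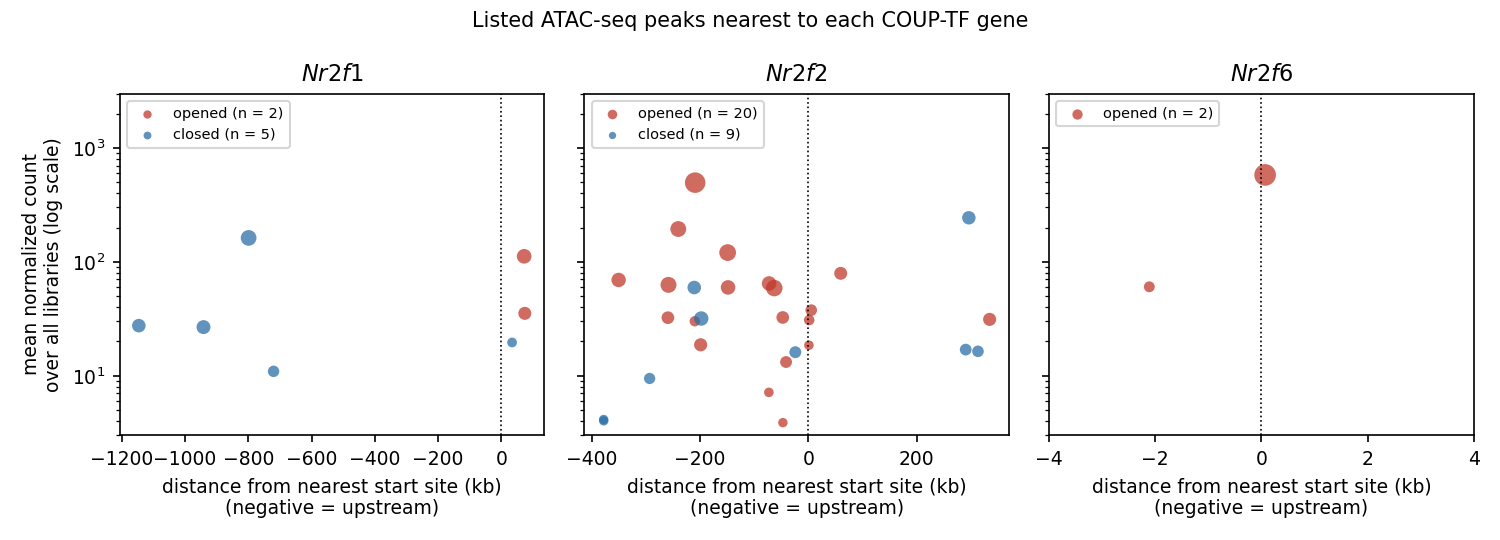
Each point is a listed peak, placed by the distance of its centre from the nearest start site of the gene (kb, negative upstream) and by its mean normalized count over all libraries (log scale), with point area growing with peak width. For *Nr2f1* 4 of the 5 closed peaks lie far upstream and the other one lies downstream with the 2 opened peaks, for *Nr2f2* opened and closed peaks lie on both sides, and for *Nr2f6* the peak at the start site has the highest count of the 38, at 578.6.

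*Nr2f2* (ENSMUSG00000030551.14, chr7:70351944-70366735, minus strand) had no listed peak within 1 kb of either of its 2 annotated start sites. The nearest listed peaks were opened and lay in introns of *Nr2f2* itself. The nearest of them, at chr7:70365485-70365570, was 1208 bp downstream of a start site and weak, with a mean normalized count of 18.54. A second intronic peak at chr7:70364979-70365115 had a mean count of 30.81 at 1688 bp, and another at chr7:70354998-70355203 had 37.66 at 5493 bp and contained a FOX match. These 3 intronic peaks were narrow, with widths of 86, 137 and 206 bp against a median of 300 bp for opened peaks.

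Further downstream of *Nr2f2*, 1 opened peak lay at 59.9 kb (chr7:70300536-70300831, mean count 79.23), in an intron of the non-coding gene *Gm29683*. It contained a match to the TEAD core CATTCC at positions 70300713 to 70300718 that overlapped a match to the RBPJ site, read on the other strand, at 70300715 to 70300721. RBPJ is the DNA-binding partner of the Notch intracellular domain, and TEAD proteins bind DNA for YAP1. Beyond it, 231 kb without a listed peak were followed by 3 closed peaks in a row at 291 to 313 kb. The middle one, chr7:70063902-70064234, had a mean count of 243.4, higher than 98.5% of all closed peaks, whereas its neighbours on either side had 16.96 and 16.38. The outermost peak on this side was opened and stood at 335 kb (chr7:70025522-70025827, mean count 31.25). In all, 5 of the 8 peaks downstream of a start site were opened.

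Upstream, *Nr2f2* had 21 listed peaks, 15 of them opened. The peak nearest to the start on this side was also the nearest closed peak, at chr7:70390521-70390746 and 23.9 kb, with a mean count of 16.1. It began a stretch of 49.0 kb to position 70439535 that held 7 peaks, 6 of them opened, and was the densest 50-kb stretch around the gene. These 7 peaks lay within the non-coding gene *B130024G19Rik*, 2 of them over its exons. The 3 strongest of the 6 opened peaks had mean counts of 32.48, 58.81 and 64.56, and the other 3 had 3.877, 7.149 and 13.2. The longest run of opened peaks, 8 in a row over 108 kb, took in these 6 and a pair of intergenic peaks at 148 and 149 kb. The farther of that pair, chr7:70515312-70515918, had a mean count of 120.5 and held an NKX2, a FOX and a TEAD match between positions 70515646 and 70515694.

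The highest count around *Nr2f2* was that of an opened peak 209 kb upstream, at *Gm44812*. This peak, chr7:70575106-70576101, had a mean count of 495.3 and a width of 996 bp, above 97.4% and 98.6% of all opened peaks. Its central sequence is the second one shown. Its hexamers, 3 in number, lay outside the central 200 bases, at 70575198, 70575324 and 70575900. A small opened peak followed at chr7:70576255-70576383 (mean count 30.09). The next peak, chr7:70577091-70577431, started 0.707 kb further on and was closed, with a mean count of 59.47, higher than 80% of closed peaks. It holds the paired hexamers at 70577183 to 70577188 and 70577192 to 70577197. All 3 peaks had their centres within 1 kb of the start of *Gm44812*, so opened and closed peaks stood side by side at the same non-coding promoter. A similar pair stood at 198 and 199 kb, where a closed peak with a mean count of 31.79 (chr7:70564189-70564597) and an opened peak with 18.7 (chr7:70565273-70565583) were 0.675 kb apart, and each of these contained the hexamer.

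Farther upstream 3 opened peaks lay at 240 to 259 kb, the first of which, chr7:70606512-70607037, had the second highest mean count of the opened *Nr2f2* peaks at 194.0. The other two had 62.76 and 32.33. Past them came a closed peak of 9.465 at 293 kb, an opened peak of 69.31 at 350 kb and a pair of closed peaks at 378 kb, 0.105 kb apart. With mean counts of 4.019 and 4.132 and widths of 78 and 76 bp, this outermost pair (chr7:70744383-70744460 and chr7:70744566-70744641) was among the weakest closed peaks in the list. The first listed peaks beyond the territory of *Nr2f2* were a closed peak of *Arrdc4* on the downstream side and an opened peak of *Gm10295* on the upstream side.

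Opened peaks of *Nr2f2* lay closer to the gene than closed ones by median distance, as they did over all listed peaks. Within 100 kb of a start site 10 of 11 peaks were opened, 90.9%, against 55.7% of all 63435 listed peaks in that range. Beyond 100 kb 10 of 18 were opened, 55.6%, against 32.5% of all 16932 listed peaks at such distances. The median distance was 110 kb for the opened and 293 kb for the closed peaks, compared with 17.5 and 42.4 kb over all listed peaks. Of the 28 pairs of neighbouring *Nr2f2* peaks, 17 belonged to the same list (60.7%), against 74.8% of neighbouring peaks assigned to the same gene over the genome. Among pairs at most 20 kb apart the share was 15 of 18 (83.3%) against 77.3%. The median mean count was 35.1 for the opened and 16.4 for the closed peaks of *Nr2f2*, below the medians of 40.7 and 25.8 over all opened and all closed peaks.

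**Figure D2:**
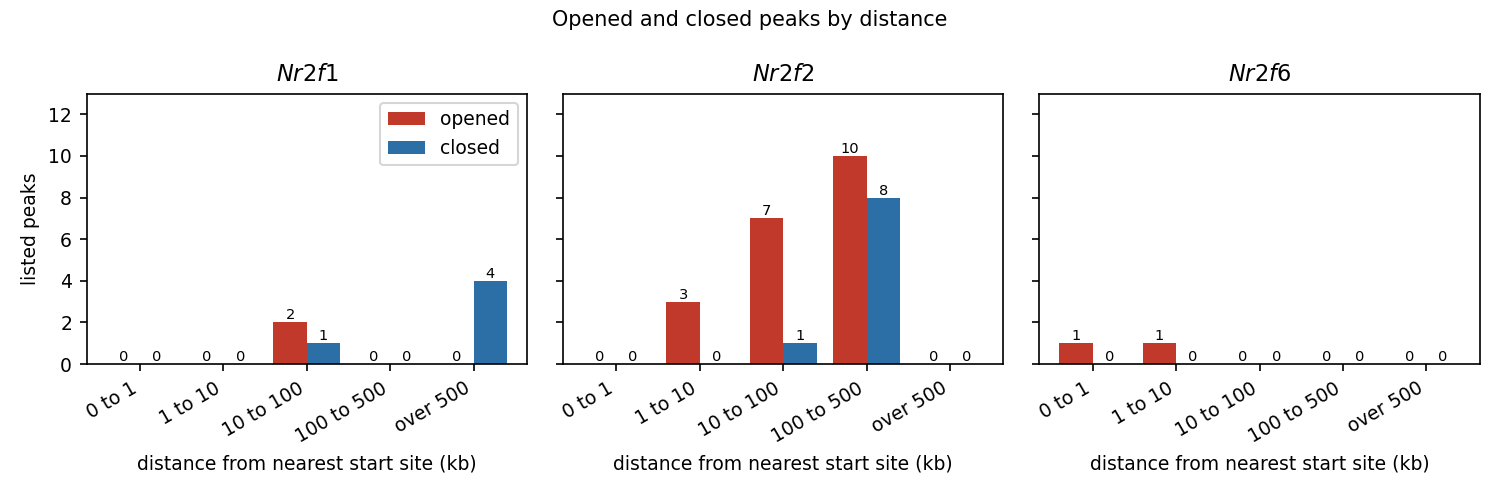
Bars give the number of opened and closed listed peaks of each gene by distance of the peak centre from the nearest start site (kb). *Nr2f2* has 10 opened and 1 closed peak up to 100 kb and 10 opened and 8 closed beyond it, *Nr2f1* has 4 closed peaks beyond 500 kb, and *Nr2f6* has both of its peaks within 10 kb.

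*Nr2f1* (ENSMUSG00000069171.14, chr13:78188973-78199757, minus strand, 4 annotated start sites) showed no listed peak over its body or its promoters. A gap of 758 kb without a listed peak, from position 78162430 to 78919961, contained the whole gene. Downstream of the gene 3 listed peaks lay inside *Fam172a*, a neighbouring protein-coding gene whose own start is farther away. The 2 opened ones lay at chr13:78123963-78124387, with a mean count of 111.8 at 72.2 kb, and at chr13:78122017-78122316, with a mean count of 35.28 at 74.2 kb over the pseudogene *Gm18990*. The peak closest to *Nr2f1*, at 34.0 kb (chr13:78162336-78162430), was closed, 95 bp wide and weak, with a mean count of 19.59. Both opened peaks held an E-box and an NKX2 match, and the stronger one also the FOX match shown in its sequence.

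Upstream of *Nr2f1* the listed peaks, 4 in number, were all closed, intergenic and over 500 kb away. The strongest, chr13:78998685-78999199, had a mean count of 162.1 at 799 kb, higher than 96.3% of all closed peaks. It contained 2 AP-1 matches, 2 E-boxes and, outside the central bases shown, the hexamer at 78999056. The remaining 3 had mean counts of 10.93 at 720 kb (chr13:78919961-78920155), 26.73 at 942 kb (chr13:79141441-79141811) and 27.52 at 1146 kb (chr13:79345974-79346313), and the last 2 of these each held a hexamer. With the peak at 34.0 kb, the closed peaks formed a run of 5. Over all genes only 3.11% of closed peaks and 0.84% of opened peaks were more than 500 kb from a protein-coding start site. The peaks that followed on either side were an opened peak of *Pou5f2* and a closed peak of *Arrdc3*.

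*Nr2f6* (ENSMUSG00000002393.14, chr8:71374127-71381960, minus strand) was the only one of the 3 genes with a listed promoter peak. The peak chr8:71381329-71382453 was opened, 1125 bp wide and centred 69 bp downstream of the single annotated start site, with a mean normalized count of 578.6. Among all 7694 opened promoter peaks, 92.4% had a lower mean count, with a median of 169, and 97.2% were narrower, with a median width of 485 bp. Opened peaks were common at promoters, since 74.3% of the 10359 listed peaks within 1 kb of a protein-coding start site were opened. The sequence around the peak centre had a GC content of 84.5%, against a median of 50.8% over all opened peaks. Only 18.8% of all opened peaks lay within 1 kb of a protein-coding start site, and GC content was not compared among promoter peaks alone. The whole peak held 2 E-boxes, a hexamer at 71382379 and an RBPJ match at 71381488 to 71381494. The other opened peak, chr8:71383994-71384152, lay 2113 bp upstream with a mean count of 60.35 and a width of 159 bp, and also held an E-box. On the gene side the next listed peak was an opened one of *Use1*, and on the other side a closed one of *Abhd8*.

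The number of peaks per gene depends on how much of the genome is nearest to it. This territory measured 1.30 Mb for *Nr2f2*, 1.43 Mb for *Nr2f1* and 12.2 kb for *Nr2f6*, against a median of 47.2 kb over 21911 protein-coding genes. By territory *Nr2f1* ranked 174 and *Nr2f2* 205 from the widest, and *Nr2f6* ranked 19505. By number of listed peaks the order was *Nr2f2* at rank 231, *Nr2f1* at 3156 and *Nr2f6* at 8314. Per Mb of territory *Nr2f2* had 22.2 listed peaks, *Nr2f1* 4.89 and *Nr2f6* 164, compared with a median of 27.8. The 349 genes with a territory of over 1 Mb had a median of 11 listed peaks, and 24.4% of the 5761 peaks nearest to them were opened. Of these genes 69 had more peaks than *Nr2f2* and 127 had fewer than *Nr2f1*. Among the 652 genes with at least 20 listed peaks the median opened share was 43.0%, and 130 of them had a higher share than *Nr2f2*.

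**Figure D3:**
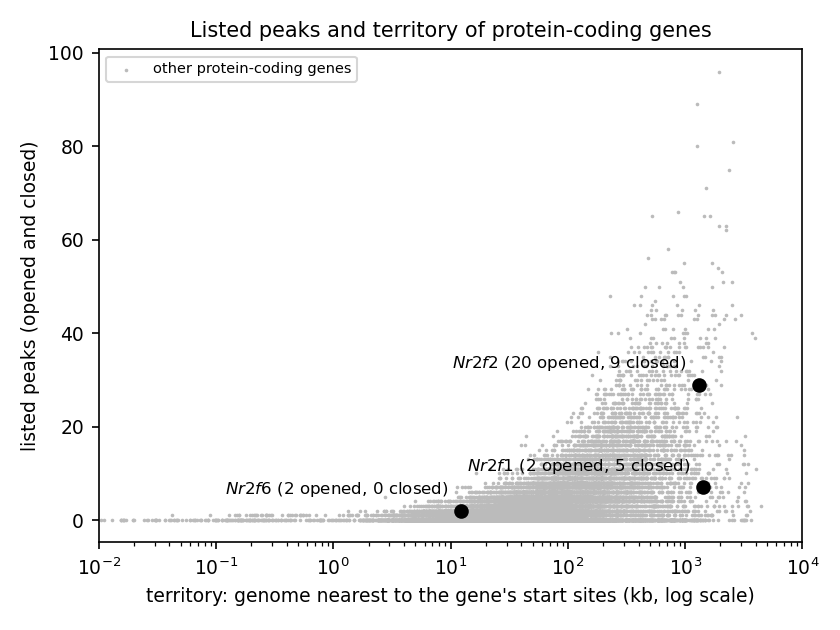
Each grey point is a protein-coding gene, placed by its territory (kb, log scale) and its number of listed peaks, opened and closed together. *Nr2f2*, with 29 peaks, and *Nr2f1*, with 7, have territories of like size at the wide end, and *Nr2f6*, with 2 peaks, has a short one.

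When non-coding genes were also allowed to claim a peak, *Nr2f1* kept 0 peaks, *Nr2f2* kept 3, all opened, and *Nr2f6* kept both of its own. All other peaks were then nearest to a non-coding start site, such as those of *Gm44812* and *B130024G19Rik*. By class, 15 of the 29 *Nr2f2* peaks were intergenic, 9 lay in introns, 2 over exons and 3 at the *Gm44812* promoter. For *Nr2f1* 4 of 7 were intergenic, 2 in introns and 1 over the exon of a pseudogene. The *Nr2f2* peaks covered 6898 bp in the opened list and 2065 bp in the closed list, those of *Nr2f1* 725 and 1516 bp, and those of *Nr2f6* 1284 and 0 bp.

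The pattern of peak number, territory and opened share was compared with that of the 2349 genes that had at least 10 listed peaks. Likeness was the Euclidean distance over the log2 number of peaks, the log2 territory and the opened share multiplied by 4. The genes most like *Nr2f2* were *Nckap5* (31 peaks, 67.7% opened, distance 0.331), *1190002N15Rik* (26 peaks, 69.2%, distance 0.334) and *Epha4* (37 peaks, 64.9%, distance 0.389). *Nr2f1*, with 7 peaks, and *Nr2f6*, with 2, fall below the limit of 10 peaks, so no gene of the same peak number was in the set and no likeness is given for them.

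To ask which transcription factor sites the peaks carry, exact matches to the strings of 11 motifs were counted on both strands in 200 bp around each peak centre. These windows reach past the edges of peaks narrower than that. The strings were AGGTCA for the receptor hexamer, AGAGGTCA or AGGGGTCA for COUP-TFII, CATTCC for TEAD, TGANTCA for AP-1, TGTTTAC for FOX, CACTTNA for NKX2, CAGCTG for the E-box, GTGGGAA for RBPJ and TGTGGTT for RUNX. The other two were DR1, a direct repeat of the hexamer with 1 base between, and NFI, TTGGC followed after 5 bases by GCCAA. The first COUP-TFII string and DR1 contain the hexamer. A match is a string of letters and not a bound site.

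The hexamer was found in 7 of the 14 closed peaks of the 3 genes, 50% (interval 26.8 to 73.2), and in 13.9% of all 39539 closed peaks. In the opened peaks it was found in 2 of 24, 8.33%, against 15.5% of all 40828 opened peaks, and 1 of these 2 copies lay outside the listed peak. The closed peaks with the hexamer were 3 of *Nr2f1* and 4 of *Nr2f2*, and they held 8 distinct copies, 3 of which lay just outside the listed peak. These 3 belonged to the narrow peak at 34.0 kb from *Nr2f1* and to the weak pair at 378 kb from *Nr2f2*. The contrast between the lists depended on the window. Over whole peaks the shares were 6 of 14 closed (42.9% against 18.2% of all closed peaks) and 6 of 24 opened (25% against 23.6%), and in the central 100 bp they were 2 of 14 (14.3%, interval 4.01 to 39.9, which includes the 7.34% of all closed peaks) and 0 of 24 (0% against 8.02%). The longer COUP-TFII strings matched none of the 38 peaks, where 2.47% of all opened and 1.74% of all closed peaks had a match, and DR1 matched none either, against 0.0416% and 0.00759%.

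Of the other motifs, some matched peaks of both lists and some did not. NKX2 strings were the most frequent in the opened peaks of the 3 genes, in 7 of 24 (29.2% against 18.6% of all opened peaks), and were also found in 5 of 14 closed peaks (35.7%, interval 16.3 to 61.2, against 14.9%). Among the closed peaks with NKX2, the weak peak at chr7:70744383-70744460 had its match outside the listed peak. In the central 100 bp NKX2 was in 2 of 14 closed peaks (interval 4.01 to 39.9, against 8.19%). Over 1 kb from any start site it was in 4 of 13 (interval 12.7 to 57.6, against 15.5%), and both of these intervals include the background. Over whole peaks it was in 6 of 14 (42.9%, interval 21.4 to 67.4, against 18.4%). AP-1 matched 6 of 14 closed peaks (42.9% against 26.4%) and 1 of 24 opened ones (4.17% against 10.6%). The E-box CAGCTG was found in 5 of 14 closed (35.7% against 22.6%) and 4 of 24 opened peaks (16.7% against 12%). Over whole peaks the closed share was below its background, at 3 of 14 (21.4% against 27.6%). TEAD strings occurred in 2 of 24 opened peaks (8.33% against 18.1%) and in 2 of 14 closed ones (14.3% against 8.77%), but in 0 of 14 closed ones in the central 100 bp, against 4.11%. FOX strings occurred in 3 of 24 opened (12.5% against 6.84%) and in 0 of 14 closed peaks, against 9.7%. RBPJ matched 1 of 24 opened peaks (4.17% against 5.74%), that at 59.9 kb from *Nr2f2*, and 0 of 14 closed ones, against 4.02%. RUNX matched 2 opened peaks (8.33% against 8.33%) and 1 closed peak (7.14% against 3.6%). NFI matched none, against 0.0588% of all opened and 0.0784% of all closed peaks. With 24 and 14 peaks the intervals are wide, and 22 shares were compared with their background.

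**Figure D4:**
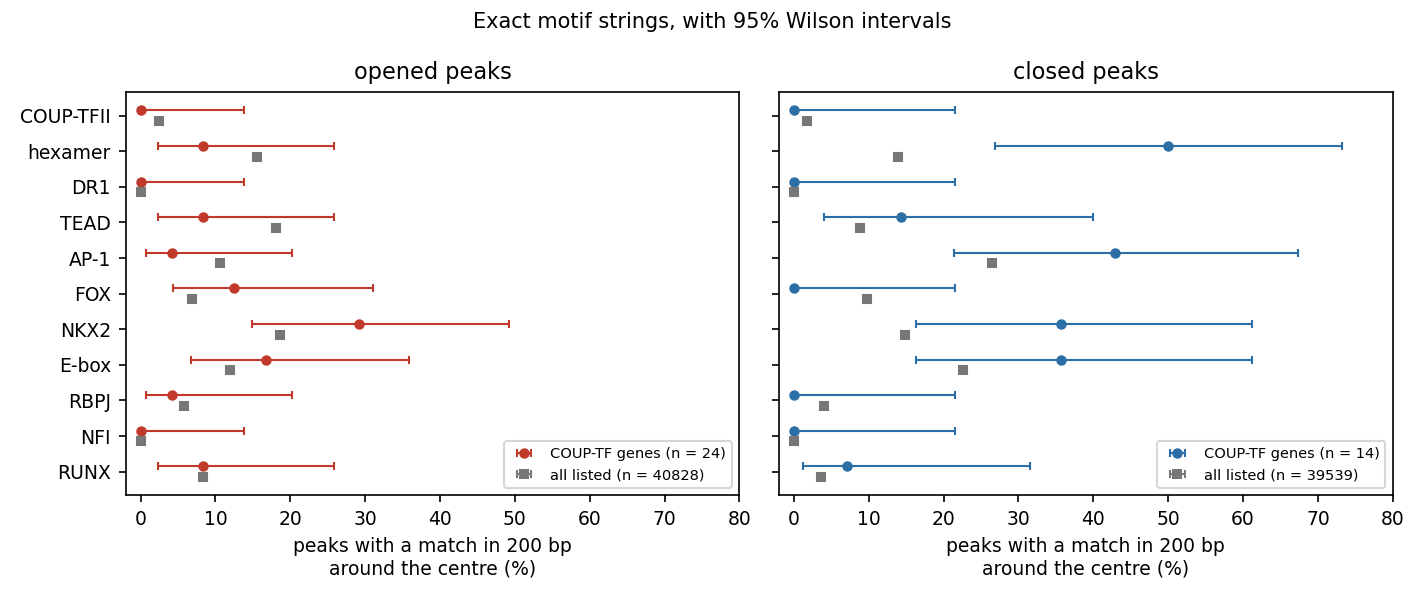
Points give the percentage of opened (left) and closed (right) peaks with an exact motif match in the central 200 bp, with coloured points for the peaks of the COUP-TF genes, grey squares for all listed peaks of the same list, and bars for 95% Wilson intervals. The interval of the hexamer in the 14 closed peaks, 26.8 to 73.2%, lies above the 13.9% of all closed peaks in this window but not in the central 100 bp, and that of NKX2 in the same peaks, 16.3 to 61.2%, above 14.9%, with the same limit. Some of the hexamer and NKX2 matches counted here lay outside the listed peaks.

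The promoters themselves were examined in RefSeq windows around each start on GRCm38.p6, most of them upstream of it, where 3 of 3 symbols matched with 4 windows. The *Nr2f6* window, chr8:71381903-71382202, had a GC content of 82.7% and overlapped the opened promoter peak. It held an E-box, which 16.3% of all 32851 windows also held. The *Nr2f2* window, chr7:70366697-70366996, had a GC content of 49.7%, no listed peak and none of the 11 motifs. *Nr2f1* had a GC-rich window at chr13:78198824-78199123 (68.0%) with a RUNX string, present in 5.27% of windows, and a second one at chr13:78196400-78196699 (43.0%) with a FOX string, present in 3.65%. Neither overlapped a listed peak. The median GC content over all windows was 52.7%.

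Among the other genes of the family, 46 nuclear receptor genes had 401 listed peaks, of which 260 were opened (64.8%, against 50.8% of all listed peaks). An opened promoter peak was present at 22 of them and a closed one at 5, where 26.6% and 8.43% of all protein-coding genes had one. No listed peak was nearest to 4 of them, against 33.4% of all genes. The receptors with promoter peaks and the most listed peaks were the retinoic acid receptor gene *Rarb* (17 opened, 16 closed), the glucocorticoid receptor gene *Nr3c1* (21 opened, 11 closed), *Rora* (17 opened, 14 closed), *Rorb* (5 opened, 18 closed), *Rxra* (16 opened, 2 closed), which encodes the common partner of many receptors, and the lipid sensor gene *Ppara* (14 opened, 0 closed). The promoter peak of *Rorb* was closed and those of the other 5 genes were opened.

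Of 92 peaks nearest to 6 genes for partners of COUP-TFs, 19 were opened (20.7%, against 50.8% of all listed peaks). This share holds for these 6 genes alone, since another gene of the list is not reported here. The corepressor gene *Ncor1* (2 opened, 0 closed) had an opened promoter peak, whereas *Prox1*, whose product pairs with COUP-TFII in lymphatic endothelium (0 opened, 27 closed), *Bcl11a* (4 opened, 20 closed) and *Zfpm2* (0 opened, 18 closed) had closed promoter peaks. The coactivator gene *Ncoa1* (4 opened, 0 closed) and *Bcl11b* (9 opened, 8 closed) had no listed promoter peak. Of 59 peaks nearest to 4 genes linked to *Nr2f2* in vessels, 24 were opened (40.7%). The VEGF receptor gene *Flt4* (3 opened, 1 closed) and the venous marker *Ephb4* (3 opened, 0 closed) had an opened promoter peak, *Angpt1*, encoding a ligand of the TEK receptor, had closed ones (0 opened, 15 closed), and *Nrp2* had none (18 opened, 19 closed).

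*Nr2f2* is active in endothelium and mesenchyme, so markers of other cells that could have entered the sort were examined in the same lists. The shares below stand against 50.8% opened among all listed peaks, and the promoter peaks against the 26.6% of genes with an opened and 8.43% with a closed one. Of 85 peaks nearest to 10 endothelial genes 19 were opened (22.4%), with an opened promoter peak at *Kdr* alone and closed ones at *Erg* and *Tek*. Of 34 peaks nearest to 10 fibroblast and pericyte genes 19 were opened (55.9%), 9 of them at *Tbx4* and 7 at *Col1a1*. Closed peaks were more numerous at *Dcn* (3 opened, 6 closed), *Pdgfra* (0 opened, 5 closed), *Col1a2* (0 opened, 2 closed) and *Twist1* (0 opened, 1 closed). An opened promoter peak was present at *Col1a1* and closed ones at *Col1a2* and *Twist1*. There was no listed peak at *Col3a1*, *Pdgfrb*, *Lum* and *Tcf21*. Of 24 peaks nearest to 10 leukocyte genes 17 were opened (70.8%), 11 of them at *Ptprc*, with opened promoter peaks at *Cd68* and *Cd14*. The part of such cells in the peaks of the COUP-TF genes was not tested.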

How the data were processed

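Cells were grouped by the Hes1-GFP status in the labels. The authors trimmed the reads, aligned them to mm10 with Bowtie2 2.3.4.1, removed duplicates with Samtools, called narrow peaks with MACS2 with reads shifted and extended around Tn5 insertions, merged these peaks over the samples and used bedtools for read counts. The authors compared the populations with DESeq2 1.28.1 and deposited an opened and a closed list of peaks that passed their limits. The signal used here is the deposited mean over all libraries of the normalized counts in a peak. The other deposited columns (log2 fold change, its error, the statistic, p and adjusted p) belong to the authors' own comparison and were not used. Whether lanes or the technical replicate were summed is not given in the sources used here.

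Peaks were placed, 1-based, on GRCm38.p6 with the basic GENCODE annotation in Python 3.11.15 (numpy 2.4.6, pandas 2.3.3, scipy 1.17.1, pysam 0.24.0, matplotlib 3.10.9). All 80367 peaks fell inside the chromosomes. The steps were checked on simulated data. The territory of a gene is all sequence closer to its start sites than to those of another protein-coding gene. Shares carry Wilson intervals at a 95% confidence level. Proteins were not analysed here, and 1 gene in each of 2 gene lists is not reported here.

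The 3 genes, the gene lists and the motifs were chosen with earlier results of these data known. Named peaks were the promoter peaks, the nearest and the 2 strongest of each list per gene, the densest 50 kb, the longest runs and the outermost peaks. Other peaks were named after their values were seen so that all 38 are accounted for. Named genes of a list were those with a listed promoter peak, at most 6 a list by number of peaks, and others singled out were chosen after their values were seen. Alternatives covered the assignment of peaks, limits on distance and mean count, merging, the promoter distance and the motif window.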

Additional observations from a re-analysis of the deposited data

How the results depend on the processing

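With the start sites of all genes, non-coding ones included, *Nr2f1* had 0 opened and 0 closed peaks, *Nr2f2* 3 opened and 0 closed (100% opened) and the 3 genes together 5 opened and 0 closed (100% opened). At most 100 kb from a start site, *Nr2f1* had 1 closed peak and 66.7% opened, *Nr2f2* 10 opened and 1 closed (90.9% opened) and the 3 genes 14 opened and 2 closed (87.5% opened, against 55.7% of all listed peaks in that range). At most 500 kb away, *Nr2f1* had 1 closed peak and 66.7% opened. With a mean count of at least 50, *Nr2f1* had 1 opened and 1 closed peak, *Nr2f2* 9 opened and 2 closed, and the 3 genes 12 opened and 3 closed (80% opened, against 64.4% of all listed peaks past that limit). With a mean count of at least 20, the closed peaks were 3 for *Nr2f1*, 3 for *Nr2f2* (83.3% opened) and 6 for the 3 genes, where 55% of all listed peaks were opened. With promoters taken as 3 kb, *Nr2f2* and *Nr2f6* had 2 promoter peaks each. In the central 100 bp 0% of opened and 14.3% of closed peaks held the hexamer. Among neighbours at most 20 kb apart, the only *Nr2f1* pair (1 of 1, 100%) and 15 of 18 *Nr2f2* pairs (83.3%) were in the same list. The cause of these changes was not tested. Of the values that answer a comparison, 62 stayed within 1.5 times the count or within the interval of the share and 35 did not. For the shares of the 10 motifs other than the hexamer these numbers were 56 and 4.

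No paired analysis was possible because the files used hold no value per library, and for the same reason no library was left out and no depth was known. A stricter limit on the fold change or adjusted p was not run, since it needs the authors' comparison columns. Without values per library, none of the differences between opened and closed peaks above can be set against the spread between mice. The lists hold only peaks past the authors' limits, and the shares are not shares of all accessible sites.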
